A study of Mus musculus with 4 samples.

Results

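The genes described are 10 whose products rejoin or protect broken DNA ends or choose how they are joined: Nhej1, Xrcc4, Lig4, Xrcc5, Xrcc6, Prkdc, Dclre1c, Trp53bp1, Rif1 and Parp1. They were found by symbol, and each occurred as 1 locus in each of the 2 deposited tables, among 11728 genes named once in both. Nhej1 was picked because its values were higher without Chd1 in both tables, so its change is given as a description and without a test. The other 9 were picked for their role in the same repair process. Transcripts were measured by RNA-seq of mouse embryonic stem cells, pluripotent cells grown from early embryos. All cells had the genotype Rosa26CreER;Chd1fl/-, that is, a tamoxifen-inducible Cre recombinase from the Rosa26 locus, 1 Chd1 allele that Cre can delete and 1 null allele. Chd1-null cells were made with 1 µM tamoxifen for 48 to 72 h, and control cells received ethanol and kept 1 functional allele. Every Chd1-null library had been through tamoxifen treatment and no control had, so effects of tamoxifen, Cre activity and Chd1 loss cannot be told apart. After tamoxifen was removed, both grew on in serum and LIF, for 3 to 5 passages. Each of 2 sets held 1 Chd1-null and 1 control library. The labels' protocols name 2 independently derived lines but do not say which set is which line. P-values cover these sets alone. They rest on the spread between the sets pooled over genes of similar level, not on a gene's own spread. RNA came from equal cell numbers, and reads were paired and 100 bases long.

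Chd1 encodes a chromatin remodeler of transcribed genes. Classical end joining repairs double-strand breaks without a template and works in all phases of the cell cycle outside mitosis. The Ku heterodimer, encoded by Xrcc5 and Xrcc6, slides onto the ends and recruits the kinase DNA-PKcs, the product of Prkdc. The nuclease Artemis, from Dclre1c, trims ends, and the ligase from Lig4 seals them together with the scaffold proteins XRCC4 and XLF, where XLF is the product of Nhej1. Trp53bp1 and Rif1 encode proteins that protect ends from resection and so favour this route over homologous recombination. Parp1 encodes an enzyme that detects breaks and serves an alternative, polymerase theta-dependent route.

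Promoters are shown for the ligation genes, since Nhej1, Xrcc4 and Lig4 act in 1 complex. Of these, Nhej1 alone was higher in both sets on the deposited scale, and differences between their changes were not tested. Each run is 300 bases, from 250 before to 50 after an annotated start, taken from RefSeq on GRCm38.p6, while the deposited values were made on mm9. All 3 lie on the minus strand of their chromosomes. The Nhej1 window is chr1:75125177-75125476, that of Xrcc4 is chr13:90089559-90089858, and the first of the 2 annotated Lig4 windows is chr8:9977631-9977930. Capitals mark matches, on either strand, to the GC box (GGGCGG), the CCAAT box (CCAAT), the TATA box (TATAAA), an ETS motif (CCGGAAG), the NRF1 motif (GCATGCGC) or an E2F motif (TTTGGCGC or TTTCCCGC).
Nhej1: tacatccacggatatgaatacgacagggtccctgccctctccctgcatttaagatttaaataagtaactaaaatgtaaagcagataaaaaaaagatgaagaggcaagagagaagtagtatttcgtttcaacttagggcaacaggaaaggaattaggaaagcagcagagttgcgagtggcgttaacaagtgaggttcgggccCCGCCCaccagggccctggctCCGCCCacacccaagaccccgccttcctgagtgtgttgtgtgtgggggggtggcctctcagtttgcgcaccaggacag
Xrcc4: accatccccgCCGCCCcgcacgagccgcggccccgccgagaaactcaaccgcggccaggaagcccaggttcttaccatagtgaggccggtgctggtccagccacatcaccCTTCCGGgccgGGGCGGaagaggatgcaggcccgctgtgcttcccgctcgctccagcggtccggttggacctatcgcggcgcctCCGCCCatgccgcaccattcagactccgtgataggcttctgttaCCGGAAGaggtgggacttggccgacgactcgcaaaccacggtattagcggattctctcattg
Lig4: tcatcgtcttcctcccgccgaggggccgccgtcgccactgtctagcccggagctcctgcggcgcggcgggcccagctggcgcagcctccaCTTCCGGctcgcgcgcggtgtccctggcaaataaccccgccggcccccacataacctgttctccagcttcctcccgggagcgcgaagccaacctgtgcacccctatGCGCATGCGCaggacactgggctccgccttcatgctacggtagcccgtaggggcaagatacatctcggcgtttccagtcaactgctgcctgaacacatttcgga

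The Nhej1 window held 10 CpG dinucleotides at 50.7% G and C, against 31 at 65.7% for Xrcc4 and 30 at 66.3% for Lig4. Over 32851 promoter windows of the same length, the median was 7 CpG (quartiles 3 and 20) and 52.7% G and C. GC boxes numbered 2 in the Nhej1 window and 3 in that of Xrcc4, and 35.7% of all windows held at least 1. The ETS motif occurred 2 times in Xrcc4 and 1 time in Lig4, with a share of 8.86% of all windows. The Lig4 window held 2 matches to the NRF1 letters, which overlap on opposite strands, and 2.71% of windows held at least 1. The second Lig4 window, not printed, differed in these motifs, with 2 GC boxes where the first had 0, and with 0 NRF1 matches. No match to the CCAAT, TATA or E2F letters lay in these 3 windows, where the shares over all windows were 37.4%, 13.6% and 1.56%. Windows of 8 of the 10 genes were in the table. Those of Nhej1 (10 CpG), Xrcc5 (9) and Dclre1c (12) held fewer CpG than the other members, which had 20 to 31, though more than the median window. These matches describe the letters and say nothing on the binding of a factor.

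The deposited values were taken as FPKM, fragments scaled to transcript length and sequencing depth, which allows levels to be compared between genes. Chd1 itself fell, to 5.71 and 8.52 FPKM in Chd1-null cells of sets 1 and 2, against 27.6 and 17.9 FPKM in control cells (log2 change -1.66, limma SE 0.25, adjusted p = 1.8e-08). Most genes were lower in Chd1-null cells: the median log2 ratio of 10261 tested genes was -0.46 in set 1 and -0.33 in set 2. The changes of the 10 genes are therefore given on the deposited scale and relative to these medians. Levels summed over 7 markers of embryonic stem cells were 1965 and 1870 FPKM in Chd1-null cells, against 2638 and 3351 FPKM in control cells. Markers of fibroblasts and feeder cells summed to 2.65 and 5.64 FPKM in Chd1-null cells, against 2.69 and 10.1 FPKM in control cells, with 5 of 8 listed in set 1, 7 in set 2 and Lum in neither. Primitive endoderm markers summed to at most 1.39 FPKM in any library, with 1 of 6 listed in set 1 and 2 in set 2. Neural ones summed to at most 6.71 FPKM, with 3 of 4 listed in each set. Fewer cells of a type and less RNA per cell cannot be told apart in such bulk samples.

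The 10 genes spanned a wide range of levels. In Chd1-null cells the order by mean FPKM was Parp1 (130.2), Xrcc5 (78.4), Rif1 (60.7), Xrcc6 (37.0), Nhej1 (14.3), Trp53bp1 (8.47), Xrcc4 (6.95), Prkdc (4.04), Dclre1c (2.09) and Lig4 (0.776). In control cells it was Parp1 (160.0), Xrcc5 (89.6), Rif1 (81.6), Xrcc6 (40.4), Trp53bp1 (12.5), Nhej1 (8.54), Xrcc4 (6.09), Prkdc (5.16), Dclre1c (3.79) and Lig4 (1.60). Nhej1 stood above Trp53bp1 in Chd1-null cells and below it in control cells, and both library ranges were apart in each group. Neighbours in these orders whose ranges overlapped were Trp53bp1 and Xrcc4 in Chd1-null cells, and Xrcc5 with Rif1 and Nhej1 with Xrcc4 in control cells. Transcripts of the Ku subunits and Parp1 were thus well above those of the ligase and its partners in all 4 libraries.

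**Figure D1:**
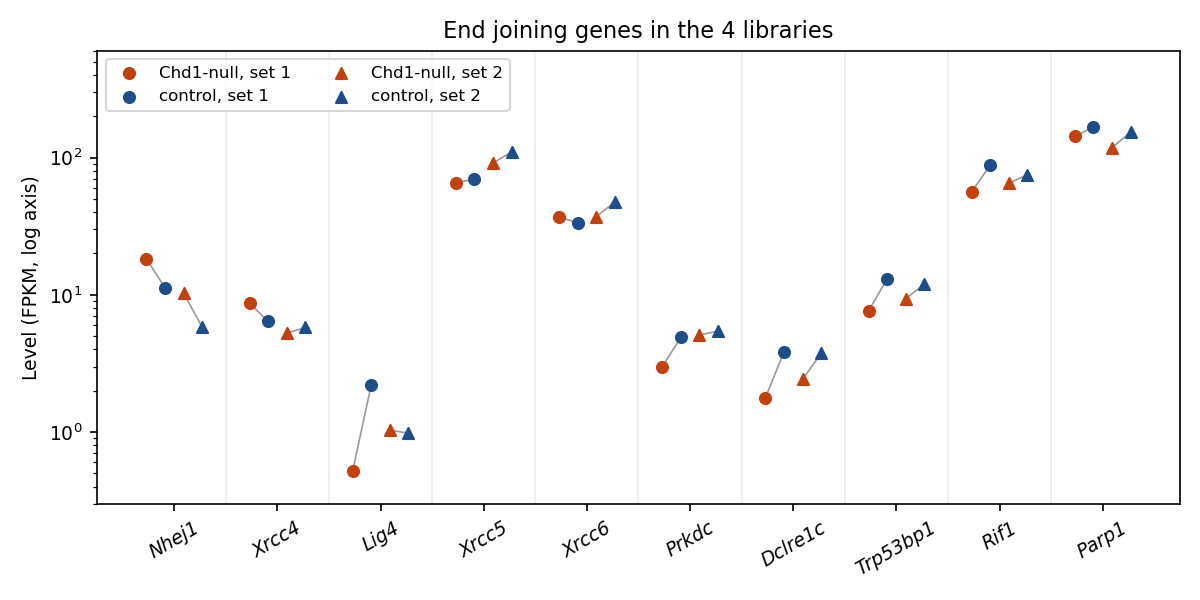
Level of each end joining gene in FPKM on a log axis, with 1 point per library (circles set 1, triangles set 2) and a line joining the Chd1-null (orange) and control (blue) library of a set. Nhej1 is the gene whose line runs down to control in both sets, at 18.3 against 11.2 FPKM in set 1 and 10.3 against 5.83 FPKM in set 2.

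Nhej1, which encodes XLF, a factor that bridges the ends with XRCC4, had 18.3 and 10.3 FPKM in Chd1-null cells of sets 1 and 2, against 11.2 and 5.83 FPKM in control cells. The Chd1-null library was the higher in each set, but the groups overlapped, because set 1 lay above set 2 in both. The level was 1.62-fold control in set 1 and 1.76-fold in set 2. These are log2 ratios of 0.69 and 0.81, a mean of 0.75 ± 0.08 (SD, n = 2 sets). Relative to the set medians, they were 1.15 and 1.14. They stood at percentiles 99.2 and 98.6 of the log2 ratios of all tested genes, which is the pattern that chose the gene.

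Neither Xrcc4 nor Lig4, the other ligation genes, was higher in both sets on the deposited scale. Xrcc4, the scaffold that holds the ligase, had 8.66 and 5.25 FPKM in Chd1-null cells, against 6.40 and 5.77 FPKM in control cells. It was higher than control in set 1 and lower in set 2, with log2 ratios of 0.43 and -0.13. Its log2 change of 0.15 (95% interval -0.47 to 0.76) did not pass in limma (adjusted p = 0.74). Xrcc4 was higher in both sets relative to the medians, with log2 ratios of 0.89 and 0.19 at percentiles 98.2 and 71.9 of all tested genes. That change of 0.54 (-0.04 to 1.12) did not pass either (limma adjusted p = 0.838). Lig4, the ligase that completes the reaction, had 0.522 and 1.03 FPKM in Chd1-null cells, against 2.22 and 0.981 FPKM in control cells. Set 1 alone held the difference, at 0.235-fold control, while set 2 stood at 1.05-fold. The log2 change of Lig4 was -0.92 with a wide interval of -2.34 to 0.51 (limma adjusted p = 0.37), and -0.52 relative to the medians (-1.81 to 0.77, limma adjusted p = 0.998). Lig4 was the lowest of the 10 genes and in the lowest decile of tested genes by level. The median log2 ratio of that decile was -0.96 in set 1 and -0.23 in set 2, so low genes as a whole were lower in set 1.

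**Figure D2:**
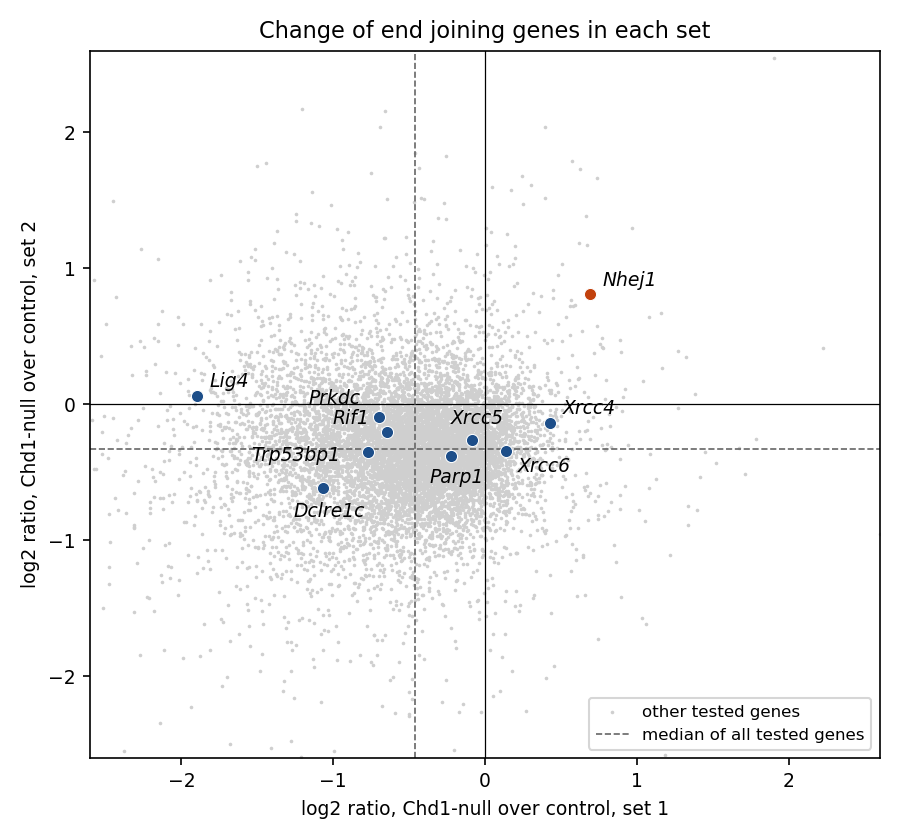
Log2 ratio of Chd1-null over control in set 1 (horizontal) and set 2 (vertical) for the 10 end joining genes and for the other tested genes in grey, of which 21 lie outside the axes. Nhej1 lies at 0.69 and 0.81 in the upper right, where 2.81% of tested genes had ratios above 0 in both sets, and none of the other 9 genes is there.

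The Ku genes had small log2 changes. Xrcc5, the larger subunit, had 65.4 and 91.3 FPKM in Chd1-null cells, against 69.5 and 109.7 FPKM in control cells, and the groups overlapped. Its log2 change was -0.18 (95% interval -0.51 to 0.16, limma adjusted p = 0.47). Xrcc6, the smaller subunit, had 36.8 and 37.2 FPKM in Chd1-null cells, against 33.5 and 47.3 FPKM in control cells. Both Chd1-null values lay between the control values, and the log2 change was -0.11 (-0.48 to 0.26, limma adjusted p = 0.69). Both had the other sign relative to the medians, at 0.22 (-0.22 to 0.66) for Xrcc5 and 0.29 (-0.15 to 0.73) for Xrcc6, and neither passed (limma adjusted p = 0.998 for each). Of those relative ratios, Xrcc5 was higher in both sets (0.37 and 0.06) and Xrcc6 in set 1 alone (0.60 and -0.02). With each library divided by its total, the log2 changes of Xrcc5 and Xrcc6 turned to 0.22 and 0.29, and neither passed. Prkdc, the Ku-bound kinase, had 2.98 and 5.09 FPKM in Chd1-null cells, against 4.89 and 5.43 FPKM in control cells. It was 0.609-fold control in set 1 and 0.937-fold in set 2, a log2 change of -0.39 (-1.11 to 0.32, limma adjusted p = 0.44). Relative to the medians it was 0.00, and its sign there turned in 2 of the 7 alternatives.

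Dclre1c, the end-trimming nuclease, had the lowest log2 ratio of the 10 genes in set 2 and the lowest after Lig4 in set 1. It had 1.77 and 2.41 FPKM in Chd1-null cells, against 3.83 and 3.75 FPKM in control cells, so the groups did not overlap. In 52.6% of all tested genes both Chd1-null libraries likewise lay below both control libraries. The log2 change was -0.84 (95% interval -1.73 to 0.04, limma adjusted p = 0.19). Relative to the medians it was -0.45 (-1.24 to 0.35, limma adjusted p = 0.998), and at log2 ratio percentiles of 14.8 and 20.6 many genes were lower.

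The genes that protect ends were lower in both sets, as were 72.4% of all tested genes, and did not pass the test. Trp53bp1 had 7.61 and 9.34 FPKM in Chd1-null cells, against 13.1 and 12.0 FPKM in control cells. Its log2 change was -0.56 (limma SE 0.26, adjusted p = 0.14). Rif1, which acts downstream of 53BP1, had 56.3 and 65.1 FPKM in Chd1-null cells, against 88.2 and 74.9 FPKM in control cells. Its log2 change was -0.43 (SE 0.18), the closest to passing of the 9 genes (limma adjusted p = 0.092). In neither gene did the groups overlap, which held in this direction for 52.6% of all tested genes. Relative to the medians the log2 changes were -0.17 for Trp53bp1 and -0.03 for Rif1 (limma adjusted p = 0.998 for each), and their log2 ratios stood between percentiles 27.8 and 64.5 of all tested genes. Parp1 had 142.5 and 117.8 FPKM in Chd1-null cells, against 166.8 and 153.3 FPKM in control cells, again without overlap. Its log2 change was -0.30 (95% interval -0.63 to 0.03, limma adjusted p = 0.21), and relative to the medians 0.09 (-0.37 to 0.55).

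**Figure D3:**
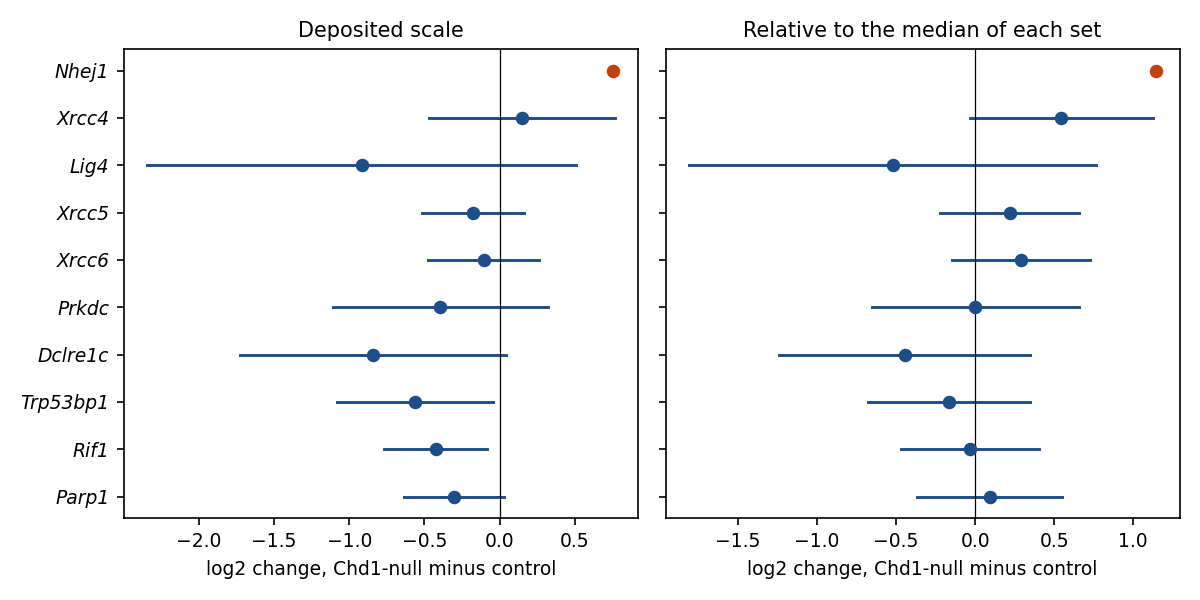
Log2 change of Chd1-null minus control (horizontal) for the 10 genes on the deposited scale (left) and relative to the median of each set (right). Lines are 95% intervals from limma, not adjusted for the number of genes, and none is drawn for Nhej1, whose change chose it. On the left the intervals of Trp53bp1 and Rif1 lie below 0 and those of the other 7 genes hold 0. On the right all 9 intervals hold 0.

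Over the 9 genes other than Nhej1, 0 fell and 0 rose by limma at an adjusted p under 0.05 on the deposited values, where 9.80% of all tested genes fell and 0.0682% rose. At an unadjusted p under 0.05, 2 of the 9 were lower, Rif1 and Trp53bp1, beside 28.9% of all tested genes. Of the 9, 6 were lower in both sets, 0 were higher in both and 3 had opposite signs, beside 72.4%, 2.81% and 24.8% of all tested genes. The split relative to the medians was 2 lower in both (Dclre1c and Trp53bp1), 2 higher in both (Xrcc4 and Xrcc5) and 5 with opposite signs, beside 24.6%, 24.6% and 50.7%. Both Chd1-null libraries lay below both control libraries in 4 of the 9 and above both in 0, beside 52.6% and 0.867% of all tested genes. Relative to the medians, 0 of the 9 passed in either direction, where 0.214% of tested genes fell and 0.146% rose, and 0 had an unadjusted p under 0.05, beside 3.53% lower and 2.76% higher over all tested genes. The median log2 ratio of the 9 was -0.65 in set 1 and -0.26 in set 2. The shares of the 9 lie near those of all tested genes. An exact sign-flip test over 2 pairs cannot give a two-sided p under 0.5, so no single gene could pass one.

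The genes differed more among themselves in set 1. The SD of the 9 log2 ratios over genes was 0.70 in set 1 and 0.20 in set 2, beside 0.53 and 0.45 over all tested genes. Lig4 at -1.90 and Xrcc4 at 0.43 were the extremes of set 1. The SD of set 1 is raised by Lig4, which had only 0.522 FPKM in its Chd1-null library. In set 2 the 9 ran from -0.61 for Dclre1c to 0.06 for Lig4.

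Ratios of FPKM within a library do not depend on how that library was scaled, and are given as descriptions. Nhej1 over Xrcc4 was 2.11 and 1.96 in Chd1-null cells of sets 1 and 2, against 1.76 and 1.01 in control cells. The groups did not overlap, though set 1 moved little (1.20-fold) and set 2 more (1.94-fold). Nhej1 was chosen for being higher in both sets. Its ratios to Xrcc4 and Lig4 draw on the same values and are no separate result. Nhej1 over Lig4 was 35.0 and 9.98 in Chd1-null cells, against 5.07 and 5.94 in control cells. With 1 added to each FPKM value, its mean in Chd1-null cells dropped to 9.10, against 22.5 without. Xrcc4 over Lig4 was 16.6 and 5.10 in Chd1-null cells, against 2.88 and 5.89 in control cells, and so differed in opposite directions in the sets. Its mean in Chd1-null cells was 4.71 with 1 added, against 10.8 without. Xrcc5 over Xrcc6 was 1.78 and 2.46 in Chd1-null cells, against 2.07 and 2.32 in control cells, with the Chd1-null values on either side of the control values. The 2 genes of end protection, Trp53bp1 over Rif1, had the ratio that varied least over the 4 libraries. It was 0.135 and 0.144 in Chd1-null cells, against 0.148 and 0.160 in control cells. The ratio was thus slightly lower in both sets (0.914-fold and 0.899-fold control). Prkdc over Xrcc5 was 0.0455 and 0.0558 in Chd1-null cells, against 0.0703 and 0.0495 in control cells, and overlapped.

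The other genes of end joining were taken from lists by role, 40 genes in all, of which 33 could be tested. By limma at an adjusted p under 0.05, 4 of them fell and 0 rose on the deposited values, beside 9.80% and 0.0682% of all tested genes. Relative to the medians 0 fell and 0 rose, beside 0.214% and 0.146%. At an unadjusted limma p under 0.05, 11 of the 33 were lower and 0 higher on the deposited scale, beside 28.9% and 0.263% of all tested genes. Relative to the medians 1 was lower and 0 were higher, beside 3.53% and 2.76%. Of the 33, 23 were lower in both sets and 0 were higher in both, beside 72.4% and 2.81% of all tested genes. On the relative scale 7 were lower in both and 7 higher in both, beside 24.6% for each. These counts lie near the shares over all tested genes. Their median log2 ratios of -0.41 and -0.36 were close to those of all tested genes. None of the 4 falls held when only genes with a mean of at least 5 FPKM were tested (lowest limma adjusted p = 0.060), when each library was divided by its total (0.788), or when the median of each level decile was subtracted (0.552). The fall of Mad2l2 also did not pass with no filter on low values (limma adjusted p = 0.060). No gene of all those tested, Chd1 included, passed with 1 common prior variance or without set as a block.

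Of 9 genes of break sensing and signalling, 2 fell, beside 9.80% of all tested genes. H2afx, the histone variant phosphorylated around breaks, had 160.9 and 157.6 FPKM in Chd1-null cells, against 212.5 and 291.5 FPKM in control cells (log2 change -0.64, limma SE 0.17, adjusted p = 0.0058). Mdc1, the adaptor that reads this mark, had 4.29 and 5.35 FPKM in Chd1-null cells, against 13.5 and 7.28 FPKM in control cells (log2 change -1.03, limma SE 0.31, adjusted p = 0.016). The groups did not overlap in either gene, and in 52.6% of all tested genes both Chd1-null libraries lay below both control libraries. Of the 3 genes of the MRE11 complex, Mre11a had a log2 change of -0.55 (limma adjusted p = 0.056), while Rad50 (-0.12) and Nbn (-0.09) had opposite signs in the sets. Mre11a, Rad50 and Nbn were named after their values were seen.

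Of 6 tested genes that act with 53BP1, 2 fell, beside the same 9.80%. Mad2l2, the REV7 subunit of shieldin, had 3.89 and 5.09 FPKM in Chd1-null cells, against 6.30 and 11.7 FPKM in control cells (log2 change -0.93, limma SE 0.32, adjusted p = 0.040). Nudt16l1, also called TIRR, a protein that binds 53BP1 and keeps it from chromatin, had 16.0 and 19.0 FPKM in Chd1-null cells, against 24.6 and 30.6 FPKM in control cells (log2 change -0.65, limma SE 0.21, adjusted p = 0.029). The groups were apart in both genes. In GENCODE M21 each overlaps a gene on the opposite strand, Draxin for Mad2l2 and Gm16861 for Nudt16l1, and so do H2afx (the miRNA gene Gm44335) and Lig1 (Zswim9), while Tdp1 overlaps the pseudogene Gm48147 on its own strand. The libraries kept strand, but whether the counting used it is not given in the sources used here, so reads of such pairs cannot be told apart.

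No gene of the other roles passed. Among 9 tested accessory factors, the gap-filling polymerase Polm had 0.799 and 0.931 FPKM in Chd1-null cells, against 3.52 and 0.978 FPKM in control cells (log2 change -1.04, limma adjusted p = 0.27). Tdp1, which removes protein adducts from ends, had a log2 change of -0.83 (limma adjusted p = 0.053), with ratios of -1.19 and -0.46 in the sets. Of these 9, 8 were lower in both sets on the deposited scale, beside 72.4% of all tested genes, and 3 relative to the medians, beside 24.6%. Among 9 genes of alternative end joining, the scaffold Xrcc1 and the ligase Lig1 each had a log2 change of -0.54 (limma adjusted p = 0.12 and 0.084). Polq, the polymerase that defines this route, had 2.54 and 3.07 FPKM in Chd1-null cells, against 2.85 and 2.42 FPKM in control cells, and was named after its values were seen. The lymphoid genes Rag1, Rag2 and Dntt, which act in antigen receptor rearrangement, were listed in neither table.

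**Figure D4:**
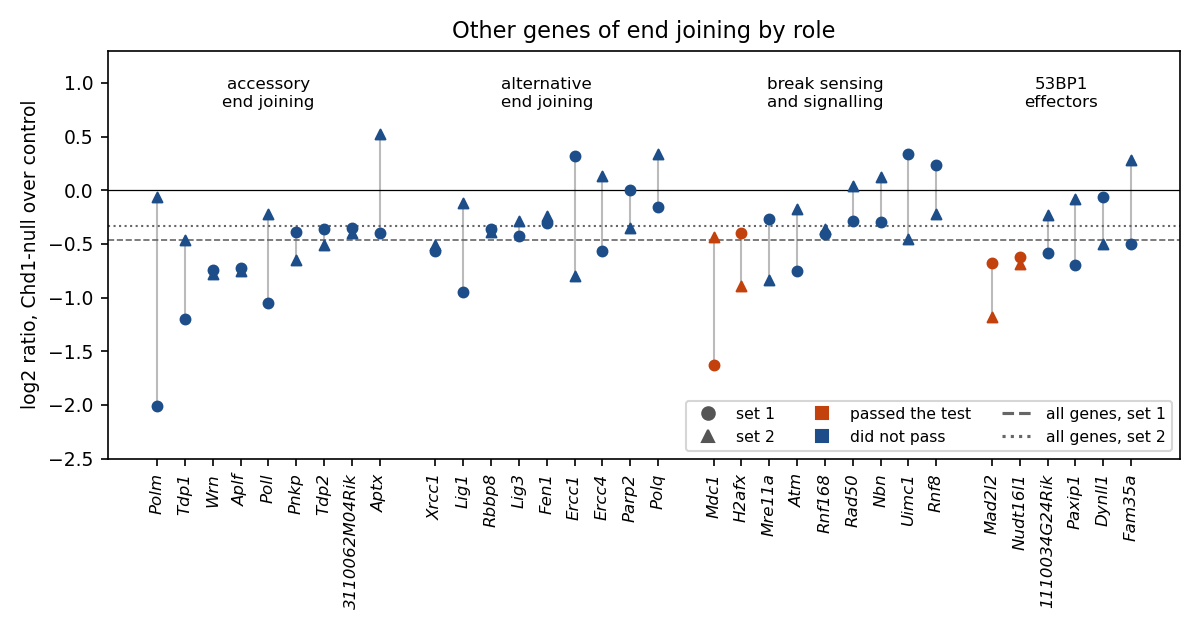
Log2 ratio of Chd1-null over control for 33 other end joining genes grouped by role, with a circle for set 1, a triangle for set 2 and a line between them. Orange marks the 4 genes that passed on the deposited scale, and dashed and dotted lines mark the medians of all tested genes, -0.46 in set 1 and -0.33 in set 2. No gene has both points above 0.

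Several of the 10 genes share a promoter region or overlap with another gene, by GENCODE M21. Mcm4, a subunit of the replicative helicase that starts head to head with Prkdc, had 37.9 and 38.2 FPKM in Chd1-null cells, against 61.4 and 58.1 FPKM in control cells, and fell (log2 change -0.65, limma adjusted p = 0.011, but 0.060 among genes with a mean of at least 5 FPKM and 0.943 with libraries divided by their totals). Abhd13, head to head with Lig4, had 4.88 and 6.07 FPKM in Chd1-null cells, against 7.16 and 7.58 FPKM in control cells (limma adjusted p = 0.34). Its set 1 ratio of 0.682-fold lay above the 0.235-fold of Lig4. Tmem167 starts head to head with Xrcc4, overlaps it, and had log2 ratios of -0.06 and -0.24. The overlapping opposite-strand genes Suv39h2 (for Dclre1c), Tubgcp4 (for Trp53bp1) and Desi1 (for Xrcc6) had log2 changes of -0.12, -0.45 and -0.64, and did not pass (limma adjusted p = 0.72, 0.27 and 0.30). No protein-coding gene in that annotation overlapped Nhej1 or started head to head with it.

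Few genes had a pair of log2 ratios like that of Nhej1. This follows in part from its choice for being higher in both sets, where 2.81% of tested genes lay. Among 6604 named genes with a mean of at least 5 FPKM, 5 lay within a Euclidean distance of 0.25 over the 2 sets. The nearest was Rdh14, a retinol dehydrogenase (distance 0.14), at 5.76 and 7.07 FPKM in Chd1-null cells, against 3.87 and 4.11 FPKM in control cells. Others were the ligand Wnt8a (0.22), the homeobox gene Rhox6 (0.23) and the mitochondrial nuclease Endog (0.23). Rhox6 had 12.3 and 1.62 FPKM in Chd1-null cells, against 8.50 and 1.01 FPKM in control cells. These genes were chosen by their ratios, so no test is given.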

How the data were processed

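RNA abundance was measured in 4 libraries, 1 Chd1-null and 1 control in each of 2 sets. The deposited values were taken as FPKM, 1 table per set. The unit is not in the headers and was inferred from the values and the tools in the submitters' processing notes (Cufflinks 2.2.0, Cuffdiff, TopHat and TopHat2 2.0.10, with build mm9). How the ERCC spike-ins entered the scaling is not given in the sources used here. The deposited ratio column equalled the quotient of the values beside it (relative difference at most 4.97e-06). Read depth is unknown, so no counting interval is given.

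Genes were joined by symbol, and symbols repeated in a table were left out. The 10261 genes with a mean of at least 1 FPKM were tested with limma 3.58.1 in R 4.3.3 on log2(FPKM + 0.1), a scale that understates changes of low genes. The fit had set as a block and a variance trend, was two-sided, and used Benjamini-Hochberg adjustment over all genes at 0.05. Same-set libraries deviated together from the means of their groups (r = 0.483 over genes), and each set has its own table. With 1 residual degree of freedom, SEs, p-values and 95% intervals rest on a variance shared by genes of similar level (prior degrees of freedom Inf). The relative comparison first subtracted the median log2 ratio of each set. The fit relative to the medians was tested on simulated data in which all genes had the same spread and the sets did not differ. That test cannot show how the fit behaves where the spread differs between genes. Members and lists were chosen with earlier results of these data known. Named genes were the members, role-list genes that passed or had the 2 largest same-sign changes of their list, promoter neighbours and the 5 genes nearest to Nhej1, of which 1 is not reported here. Older symbols were matched through RefSeq synonyms.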

Additional observations from a re-analysis of the deposited data

Results flagged for a closer look

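Of the 10 genes, 3 were above control in one set and below it in the other, each from 1 library per group. Lig4 stood at -1.90 in set 1 and 0.06 in set 2, a difference of -1.96 between the sets. Xrcc4 stood at 0.43 and -0.13, a difference of 0.57. Xrcc6 stood at 0.14 and -0.35, a difference of 0.48. These differences were not tested, and 24.8% of all tested genes had opposite signs.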

How the results depend on the processing

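All p-values here are limma's, adjusted unless named otherwise. None of the 9 genes other than Nhej1 passed the threshold on either scale under any of 8 alternatives in which it was tested. Of the 9, 6 were tested with a mean of at least 5 FPKM. Without the block or with 1 common prior variance, no gene of all those tested passed. Dividing by totals and subtracting decile medians each gave the same fit on both scales. The filters, the block and the common prior variance leave a deposited-scale log2 change as it is, so only the pseudocount and the scaling could turn one there. With each library divided by its total, Xrcc5, Xrcc6 and Parp1 turned from below 0 on the deposited scale to 0.22, 0.29 and 0.10, and Prkdc from 0.00 relative to the medians to -0.0043. With the median of each level decile subtracted, Xrcc5, Xrcc6 and Prkdc turned to 0.12, 0.22 and 0.037, and Parp1 from 0.09 relative to the medians to -0.0091. With a pseudocount of 0.01, Prkdc turned to -0.0025 relative to the medians. Nhej1 stayed between 0.69 and 0.76 on the deposited scale and between 1.04 and 1.18 relative to the medians. It stood at 1.15 with each library divided by its total and at 1.15 with level-decile medians subtracted.

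Each set alone gives a value with no test. From one set to the other the log2 change ran from -0.13 to 0.43 for Xrcc4, from -1.90 to 0.064 for Lig4 and from -0.35 to 0.14 for Xrcc6. Relative to the medians it ran from -1.44 to 0.39 for Lig4, from -0.017 to 0.60 for Xrcc6, from -0.24 to 0.24 for Prkdc, from -0.19 to 0.13 for Rif1 and from -0.049 to 0.23 for Parp1.

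Unadjusted counts in this paragraph hold both directions. Without the replicate block, 0 genes fell and 0 rose on either scale (1043 and 154 of all 10261 tested genes at an unadjusted p under 0.05). Of the other end joining genes 0 passed, and 4 of 33 were under 0.05 unadjusted on the deposited scale. Rif1 turned from -0.03 relative to the medians to 0.0015. With 1 common prior variance the counts were again 0 and 0 on either scale (1718 and 614 of 10261 unadjusted). Again 0 of the other end joining genes passed, and 6 of 33 were under 0.05 unadjusted on the deposited scale. With a mean of at least 5 FPKM, 225 fell and 2 rose, and 3 and 2 relative to the medians. There 0 of the other end joining genes passed. On the deposited scale 10 of 26 were under 0.05 unadjusted, beside 2321 of 6861 tested genes. Divided by totals, 37 fell and 50 rose, and with level-decile medians subtracted 8 fell and 4 rose. Under each of these, 0 of the other end joining genes passed. Unadjusted, 1 and 2 of 33 were under 0.05, beside 734 and 815 of 10261 tested genes. With a pseudocount of 1, 4 genes rose on the deposited scale. The main counts were 1006 lower and 7 higher, and 22 lower and 15 higher relative to the medians. The cause of these shifts was not tested.

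With 1 added to each FPKM value, Nhej1 over Xrcc4 averaged 1.90 in Chd1-null cells, Nhej1 over Lig4 9.10 in Chd1-null and 3.63 in control cells, Xrcc4 over Lig4 4.71 in Chd1-null and 2.86 in control cells, and Prkdc over Xrcc5 0.0629 in Chd1-null cells. Trp53bp1 over Rif1 averaged 0.153 in Chd1-null cells and 0.164 in control cells. Depth is unknown, and 2 sets limit the precision of every value.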
